A study of Mus musculus with 6 samples.

Results

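Tumour necrosis factor (TNF), its 2 receptors and 7 proteins that assemble on them were followed at the transcript level in mouse alveolar macrophages, which live in the air spaces of the lung and take up particles and microbes. The 10 genes are Tnf, Tnfrsf1a, Tnfrsf1b, Tradd, Traf2, Ripk1, Birc2, Birc3, Cflar and Casp8. They were taken by symbol from a deposited table of 10539 protein-coding genes, in which each of these 10 symbols occurred once. All 10 were among the 9617 genes tested, which had a mean of at least 1 FPKM (a fragment count divided by gene length and by library size) over 6 libraries. The group CEBPb-A holds 3 libraries from lung alveolar macrophages of strain C57BL/6 that overexpressed the transcription factor C/EBPβ and were given an adenovirus carrying A20. The group CEBPb holds 3 libraries from C57BL/6 lung alveolar macrophages that overexpressed C/EBPβ, and no A20 adenovirus is named for it. Both groups thus carry the overexpression, and the sources used here do not give the age of the mice, the means of overexpression or any control virus. The labels number the libraries as replicates without saying whether they came from separate animals or cultures, so each p-value reflects library-to-library spread alone, and that spread may be technical.

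TNF is a cytokine that macrophages release after inflammatory stimuli. On its type 1 receptor, encoded by Tnfrsf1a, it gathers the adaptors TRADD, RIPK1 and TRAF2 and the ubiquitin ligases cIAP1 (Birc2) and cIAP2 (Birc3) into a membrane complex that activates NF-κB. When that complex is weakened, RIPK1 can move to a cytosolic complex in which caspase-8 (Casp8) drives apoptosis, and c-FLIP (Cflar), a relative of caspase-8 with no protease activity, holds it in check. A20, the ubiquitin-editing enzyme encoded by Tnfaip3, acts on RIPK1 and limits signalling from the first complex. Tnf, Birc3, Cflar and Tnfaip3 are themselves textbook NF-κB targets.

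The start regions of Tnf, Birc3 and Cflar are printed because the values of these genes in the 2 groups did not overlap. Each is the RefSeq window of 300 bases on GRCm38.p6 that runs from 250 bases before to 50 bases after the annotated start, 5′ to 3′ along the gene's strand. Capitals mark matches, on either strand, to the TATA box TATAAA or to the C/EBP-type motif TTGCNNAA.
Tnf: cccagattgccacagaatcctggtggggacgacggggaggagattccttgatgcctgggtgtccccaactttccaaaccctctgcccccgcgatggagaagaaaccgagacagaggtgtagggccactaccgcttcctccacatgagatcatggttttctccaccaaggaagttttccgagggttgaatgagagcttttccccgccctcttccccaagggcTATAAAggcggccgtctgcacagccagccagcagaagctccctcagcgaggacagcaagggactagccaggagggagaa
Birc3: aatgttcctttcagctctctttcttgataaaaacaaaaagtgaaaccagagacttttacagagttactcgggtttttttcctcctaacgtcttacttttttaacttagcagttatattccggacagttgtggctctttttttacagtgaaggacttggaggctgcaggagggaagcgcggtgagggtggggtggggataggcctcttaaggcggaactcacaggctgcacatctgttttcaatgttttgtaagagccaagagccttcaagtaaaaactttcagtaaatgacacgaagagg
Cflar: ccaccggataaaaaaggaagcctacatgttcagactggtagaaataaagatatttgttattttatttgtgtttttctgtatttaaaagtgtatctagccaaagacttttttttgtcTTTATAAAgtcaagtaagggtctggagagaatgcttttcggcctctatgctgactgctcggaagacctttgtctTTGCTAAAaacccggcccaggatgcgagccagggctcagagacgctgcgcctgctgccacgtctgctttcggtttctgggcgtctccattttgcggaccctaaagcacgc
The Tnf window lies at chr17:35201958-35202257 on the minus strand, the Birc3 window at chr9:7873121-7873420 on the minus strand and the Cflar window at chr1:58711241-58711540 on the plus strand. The Tnf window holds TATAAA 29 bases before the start. The Cflar window holds TTGCTAAA 60 bases before the start, and farther up a stretch of capitals in which TATAAA, 132 bases before the start, overlaps a match on the other strand, 134 bases before it. The Birc3 window matched neither motif, and none of the 3 windows matched GGNNTTTCC, a simplified NF-κB motif. Of all 32851 RefSeq windows of this length, 13.6% held TATAAA, 10.8% held TTGCNNAA and 5.82% held GGNNTTTCC on either strand. Of the 11 windows of 9 of the genes (Tradd is named only), 1 held the NF-κB motif, that of Traf2. A match is a run of letters and not a measured binding site, and a window without one says nothing of the factor.

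The label of the tested agent was checked first. Tnfaip3 stood at 7.94, 15.5 and 7.32 FPKM in CEBPb-A replicates 1, 2 and 3, against 8.76, 17.7 and 19.2 FPKM in CEBPb replicates 1, 2 and 3, and its mean in the libraries labelled CEBPb-A was below that in CEBPb (limma log2 fold change −0.53, SE 0.34, adjusted p = 0.606). Cebpb stood at 363 to 492 FPKM in CEBPb-A and at 368 to 500 FPKM in CEBPb. These values are those of the mouse gene, and whether they would count the A20 carried by the adenovirus was not tested. The Tnfaip3 values thus do not bear out the labels and cannot decide against them. Each direction below compares the libraries by their labels. Were the labels exchanged, each of these directions would turn. All 12 alveolar macrophage markers examined had values, summing to 7525 to 8483 FPKM in CEBPb-A and to 7084 to 7973 FPKM in CEBPb, most of it Chil3 (4702 to 5472 FPKM in CEBPb-A and 4399 to 5086 FPKM in CEBPb). Of the 12, the groups did not overlap for 4 with higher values in CEBPb-A (Car4, Fabp1, Ear2 and Pparg, at 1.46, 1.81, 1.27 and 1.10 times the CEBPb mean). They did not overlap for 1 with lower values, Itgax (0.928 times). Of all tested genes the groups did not overlap for 16.8% in either direction and 8.86% lower. None of the 12 passed limma's adjusted threshold. The longest transcripts of Car4, Fabp1, Ear2, Pparg and Itgax have 1256, 553, 719, 2125 and 4046 bases. Longer transcripts had lower fold changes, as given below, and the part of that trend here was not tested. The sum of 3 of 9 neutrophil markers, nearly all of it S100a8, was 291 to 308 FPKM in CEBPb-A against 204 to 256 FPKM in CEBPb, and 6 of 7 markers of monocytes and interstitial macrophages summed to 6.60 to 7.38 FPKM in CEBPb-A against 8.02 to 8.81 FPKM in CEBPb. Lung epithelial markers (4 of 10) summed to 34.4 to 69.2 FPKM in CEBPb-A against 30.8 to 40.9 FPKM in CEBPb, and fibroblast and endothelial markers (2 of 9) to 6.32 to 7.96 FPKM in CEBPb-A against 8.30 to 9.18 FPKM in CEBPb. Clec9a, the 1 dendritic cell marker of 5 with a value, stood at 0.345 to 0.467 FPKM in CEBPb-A against 0.177 to 0.410 FPKM in CEBPb. The other markers on these lists, and those of T, NK and B cells, were not analysed here. CEBPb-A replicate 3 stood apart on the first principal component (25.7 against −11.7 to −0.095 for the other 5 libraries), and the part of this library or of other cells in the results below was not tested except where values without the library are given.

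Every part of the complex was transcribed in each library, over a wide span of levels. Per length and over the 6 libraries, Tnfrsf1b was the most abundant at a mean of 245 FPKM, above 98.7% of tested genes. Tnfrsf1a followed at 73.4 FPKM and Casp8 at 43.3 FPKM. Tnf itself averaged 26.8 FPKM, above 83.5% of tested genes. Cflar (14.9 FPKM), Tradd (14.9 FPKM) and Ripk1 (14.1 FPKM) came next, and the ranges of neighbours in this order overlapped here, so these 3 levels did not differ beyond their spread. Birc3 at 9.05 FPKM, Traf2 at 5.87 FPKM and Birc2 at 4.08 FPKM, the last above 30.4% of tested genes, closed the order with ranges that did not overlap.

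None of the 10 genes passed the threshold of limma (Benjamini-Hochberg adjusted p under 0.05 over all tested genes) between CEBPb-A and CEBPb, where 5 of 9617 genes (0.052%) did. At an unadjusted p under 0.05 there were 3 of 10, Tnf, Birc3 and Cflar, each lower in CEBPb-A, beside 8.18% of tested genes in either direction and 4.42% lower. The same 3 were the ones whose groups did not overlap, beside 16.8% of tested genes in either direction and 8.86% lower in CEBPb-A. The median log2 fold change was −0.085 over the 10 genes and −0.013 over all tested genes, with 6 of the 10 and 5137 of 9617 below 0. The transcripts of the ligand and of both inducible survival genes thus had lower values in CEBPb-A without passing the adjusted test, while for both receptors, the adaptors, Ripk1, Birc2 and the protease the groups overlapped. These are bulk samples, in which fewer cells of a type and less RNA per cell cannot be told apart.

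**Figure D1:**
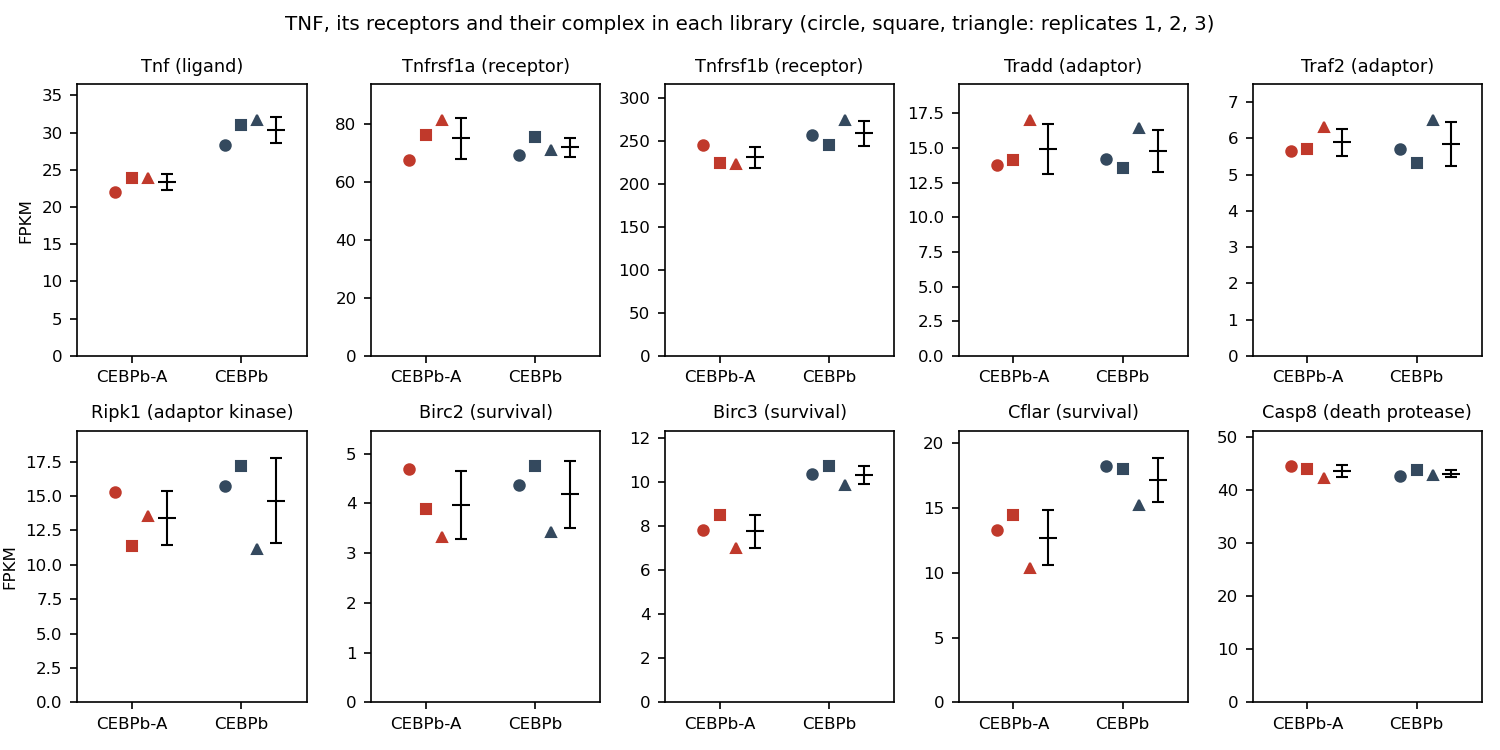
FPKM of each gene in each library, with CEBPb-A left and CEBPb right; circle, square and triangle are replicates 1, 2 and 3, and the bar is the mean with its SD (n = 3). The CEBPb-A points lie below all CEBPb points for Tnf (22.1 to 23.9 against 28.3 to 31.7 FPKM), Birc3 and Cflar, and overlap them for the other 7 genes.

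The ligand, Tnf (ENSMUSG00000024401.14, GRCm38 chromosome 17, 35199381 to 35202007, minus strand), encodes the cytokine that starts the signal. It stood at 22.1, 23.9 and 23.9 FPKM in CEBPb-A replicates 1, 2 and 3, against 28.3, 31.0 and 31.7 FPKM in CEBPb replicates 1, 2 and 3. All 3 CEBPb-A libraries were lower than all 3 CEBPb libraries, and the gap between the groups was wider than the spread within either. The CEBPb-A mean was 0.768 of the CEBPb mean (limma log2 fold change −0.37, SE 0.08, 95% interval −0.55 to −0.19, adjusted p = 0.561). An exact two-sided permutation test gave p = 0.1, the smallest that 3 against 3 libraries allow. Without CEBPb-A replicate 3 the log2 fold change was −0.38.

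Of the receptors, Tnfrsf1a (ENSMUSG00000030341.17, chromosome 6, 125349362 to 125362484) encodes the widely expressed death domain receptor TNFR1. It stood at 67.4, 76.3 and 81.3 FPKM in CEBPb-A replicates 1, 2 and 3, against 69.2, 75.6 and 70.8 FPKM in CEBPb replicates 1, 2 and 3. The highest and the lowest value both came from CEBPb-A, and the groups overlapped (log2 fold change 0.06, 95% interval −0.15 to 0.26, limma adjusted p = 0.818). Tnfrsf1b (ENSMUSG00000028599.10, chromosome 4, 145213463 to 145246870) encodes TNFR2, which has no death domain, binds TRAF2 directly and is mostly found on immune cells. Its values were 246, 225 and 223 FPKM in CEBPb-A replicates 1, 2 and 3, against 257, 245 and 275 FPKM in CEBPb replicates 1, 2 and 3. CEBPb-A replicate 1 lay just above CEBPb replicate 2, so the groups overlapped by that pair (log2 fold change −0.16, 95% interval −0.35 to 0.02, limma adjusted p = 0.588). After quantile normalization the groups of Tnfrsf1b did not overlap (log2 fold change −0.25).

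Both adaptors had nearly equal means in the 2 groups. Tradd (ENSMUSG00000031887.13, chromosome 8, 105258286 to 105264609), the death domain adaptor that binds TNFR1 first, stood at 13.7, 14.1 and 17.0 FPKM in CEBPb-A replicates 1, 2 and 3, against 14.2, 13.6 and 16.5 FPKM in CEBPb replicates 1, 2 and 3. Traf2 (ENSMUSG00000026942.13, chromosome 2, 25517982 to 25546940), which brings the cIAP ligases into the complex, stood at 5.64, 5.72 and 6.31 FPKM in CEBPb-A and 5.72, 5.33 and 6.51 FPKM in CEBPb, replicates 1, 2 and 3. For both genes replicate 3 of each group was the highest of its group, and the groups overlapped over most of their range. The log2 fold changes were 0.02 for Tradd (95% interval −0.24 to 0.27, limma adjusted p = 0.963) and 0.01 for Traf2 (95% interval −0.22 to 0.24, limma adjusted p = 0.973).

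Ripk1 (ENSMUSG00000021408.15, chromosome 13, 34002363 to 34037147), the kinase whose ubiquitination decides between the complexes, stood at 15.3, 11.4 and 13.5 FPKM in CEBPb-A replicates 1, 2 and 3, against 15.7, 17.2 and 11.2 FPKM in CEBPb replicates 1, 2 and 3. Both the highest and the lowest of these values came from CEBPb, the groups overlapped, and the spread was the widest of the 10 genes on the limma scale (log2 fold change −0.11, SE 0.17, 95% interval −0.50 to 0.28, limma adjusted p = 0.82). The annotation places the opposite-strand gene Serpinb6a across 432 bases of Ripk1, and 2 processed pseudogenes overlap Ripk1 too. An opposite-strand processed pseudogene, Gm13433, overlaps 240 bases of Traf2. Whether the authors counted by strand is not given in the sources used here, so reads there cannot be assigned with certainty.

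The 2 cIAP genes lie side by side on chromosome 9, with 11634 bases between them, and gave different values. Birc3 (ENSMUSG00000032000.17, 7848699 to 7873186, minus strand), which encodes cIAP2, stood at 7.82, 8.51 and 6.9997 FPKM in CEBPb-A replicates 1, 2 and 3, against 10.4, 10.7 and 9.89 FPKM in CEBPb replicates 1, 2 and 3. Every CEBPb-A value was below every CEBPb value, and the CEBPb-A mean was 0.753 of the CEBPb mean (limma log2 fold change −0.37, SE 0.09, 95% interval −0.59 to −0.16, adjusted p = 0.588; exact permutation p = 0.1, the smallest possible). Birc2 (ENSMUSG00000057367.12, 7818227 to 7837064, minus strand), which encodes cIAP1, stood at 4.70, 3.88 and 3.33 FPKM in CEBPb-A and 4.37, 4.74 and 3.43 FPKM in CEBPb, replicates 1, 2 and 3. Its groups overlapped across nearly their whole range, and replicate 3 was the lowest of each (log2 fold change −0.06, 95% interval −0.39 to 0.27, limma adjusted p = 0.887). The intervals of the 2 paralogs overlap, and the difference between their fold changes was not tested.

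The pair that sets the caspase-8 step also lies side by side, on chromosome 1 with 36489 bases between the genes. Cflar (ENSMUSG00000026031.15, 58711508 to 58758884, plus strand) stood at 13.3, 14.5 and 10.4 FPKM in CEBPb-A replicates 1, 2 and 3, against 18.2, 18.0 and 15.2 FPKM in CEBPb replicates 1, 2 and 3. The highest CEBPb-A library was below the lowest CEBPb library, and the CEBPb-A mean was 0.741 of the CEBPb mean (limma log2 fold change −0.41, SE 0.13, 95% interval −0.72 to −0.11, adjusted p = 0.588; exact permutation p = 0.1, the smallest possible). Casp8 (ENSMUSG00000026029.14, 58795374 to 58847503, plus strand) stood at 44.5, 44.0 and 42.3 FPKM in CEBPb-A and 42.6, 43.8 and 42.8 FPKM in CEBPb, replicates 1, 2 and 3. It was the steadiest of the 10 genes, with 1.05 times between its highest and lowest library (log2 fold change 0.02, 95% interval −0.13 to 0.17, limma adjusted p = 0.933). The annotation places Gm37760, on the same strand, across 3841 bases of Casp8, so reads there cannot be assigned with certainty either. Cflar has 13 annotated transcripts, of which the longest has 6572 bases, and values for a whole gene do not tell its long and short c-FLIP forms apart. Over 9600 genes, which are not independent of each other, longer transcripts had lower fold changes. Spearman's rho of fold change with the longest transcript was −0.53, and it was −0.32 when CEBPb-A replicate 3 was left out. With that trend removed the log2 fold change of Cflar was −0.27 (limma adjusted p = 0.70) and that of Tnf, whose longest transcript has 1639 bases, was −0.45 (limma adjusted p = 0.143), and without CEBPb-A replicate 3 that of Cflar was −0.28.

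**Figure D2:**
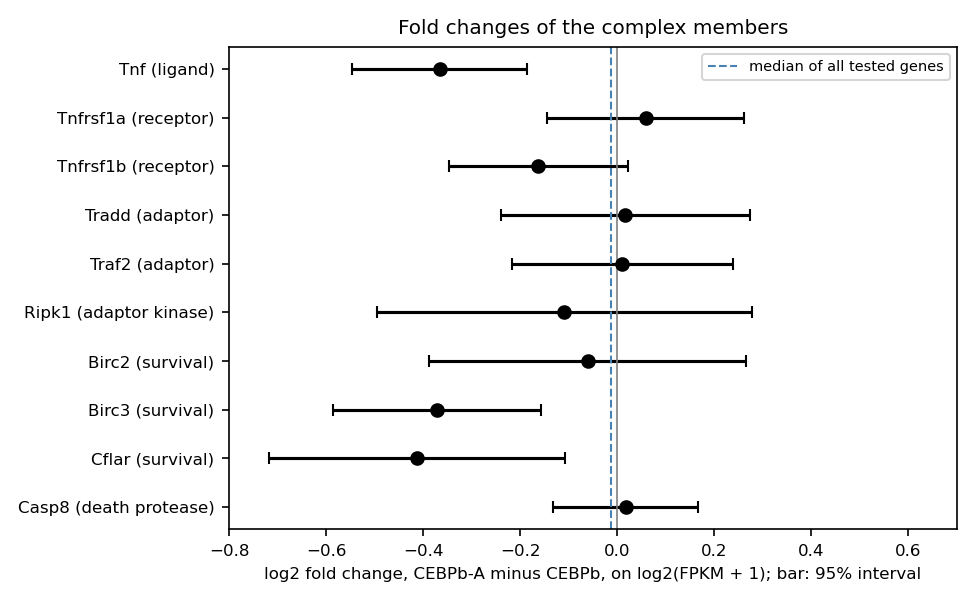
Log2 fold change of each gene, CEBPb-A minus CEBPb, from limma on log2(FPKM + 1), with its 95% interval; the dashed line is the median of all 9617 tested genes (−0.013). The unadjusted intervals of Tnf, Birc3 and Cflar lie below 0 and those of the other 7 genes include it.

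Ratios between members within a library do not depend on an overall scaling factor of that library, and are given as a description with no test. A trend with transcript length does not cancel in them where the members differ in length. With that trend removed the log2 fold changes of Cflar and Casp8 were −0.27 and −0.0082, against −0.41 and 0.017 with it. Those of Tnf and Tnfrsf1a were −0.45 and 0.012, against −0.37 and 0.058. The ratios themselves were not computed without the trend. The Tnf to Tnfrsf1a ratio of FPKM was 0.327, 0.314 and 0.294 in CEBPb-A replicates 1, 2 and 3, against 0.410, 0.410 and 0.448 in CEBPb replicates 1, 2 and 3. The Cflar to Casp8 ratio was 0.2995, 0.329 and 0.245 in CEBPb-A and 0.428, 0.412 and 0.355 in CEBPb. For both ratios the 3 CEBPb-A libraries were below the 3 CEBPb libraries. The Birc3 to Birc2 ratio was 1.66, 2.19 and 2.10 in CEBPb-A and 2.37, 2.26 and 2.88 in CEBPb, so the groups were separated there too, by a narrow margin. Tnf, Cflar and Birc3 are the members whose own groups did not overlap. The separation of their ratios largely restates that and is no separate result. The Tnfrsf1b to Tnfrsf1a ratio was 3.64, 2.95 and 2.74 in CEBPb-A and 3.72, 3.24 and 3.88 in CEBPb, and its groups overlapped. In every library there was thus less Cflar than Casp8 transcript per length, and more Birc3 than Birc2.

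**Figure D3:**
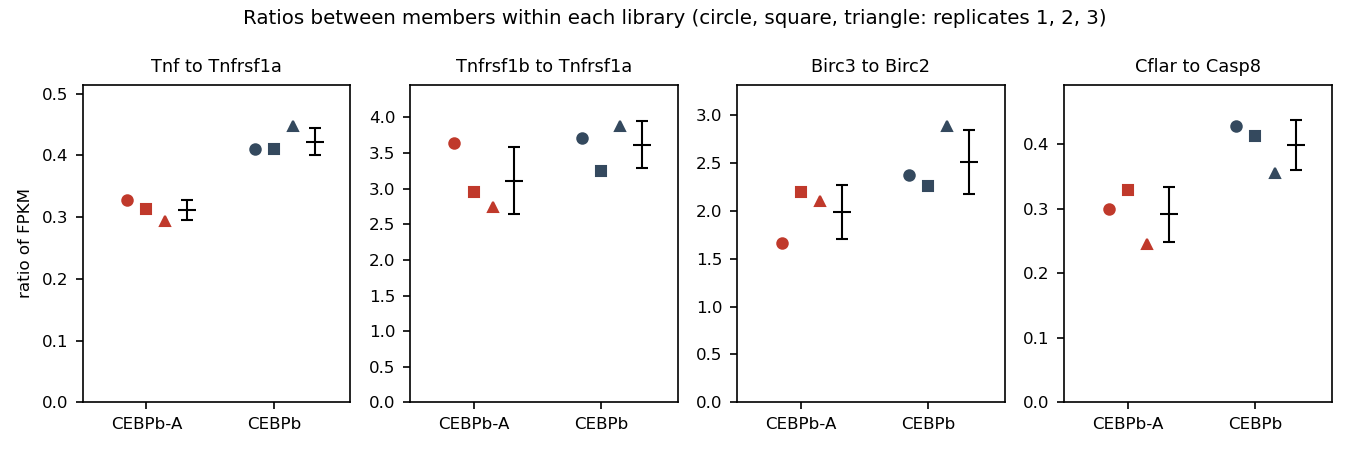
Ratio of FPKM between pairs of members within each library, with CEBPb-A left and CEBPb right; circle, square and triangle are replicates 1, 2 and 3, and the bar is the mean with its SD (n = 3). Tnf to Tnfrsf1a, Birc3 to Birc2 and Cflar to Casp8 lie lower in each CEBPb-A library than in any CEBPb library, and Tnfrsf1b to Tnfrsf1a overlaps. The separated ratios have as numerators the members whose own groups do not overlap.

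The pathway around the complex was followed in 6 lists, and no gene of them passed limma's adjusted threshold in either direction. The counts below stand beside 8.18% of all tested genes at an unadjusted p under 0.05 in either direction and 4.42% lower in CEBPb-A. Groups did not overlap for 16.8% of all tested genes in either direction and 8.86% lower. Release of membrane-bound TNF depends on the protease ADAM17 and its partner iRhom2 (Rhbdf2). In that list 7 of 8 genes were tested, none had an unadjusted p under 0.05 and the median log2 fold change was −0.002. Adam17 averaged 68.9 ± 6.77 FPKM in CEBPb-A and 78.2 ± 6.35 FPKM in CEBPb, and Sppl2a, a protease that cuts the membrane stub of TNF, averaged 31.4 ± 4.53 FPKM in CEBPb-A and 35.1 ± 5.43 FPKM in CEBPb (SD, n = 3 each). Frmd8, which stabilises iRhoms, had a log2 fold change of 0.03 and the related protease Sppl2b one of 0.01.

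Downstream, 15 of 15 genes of the death and necroptosis steps were tested, with 2 at an unadjusted p under 0.05, both lower in CEBPb-A, and a median log2 fold change of −0.03. Mlkl, the pore-forming effector of necroptosis, stood at 5.88, 6.14 and 5.25 FPKM in CEBPb-A replicates 1, 2 and 3, against 7.43, 8.87 and 8.004 FPKM in CEBPb replicates 1, 2 and 3. It was the gene of this list whose groups did not overlap (limma log2 fold change −0.43, SE 0.10, adjusted p = 0.588). Zbp1, a nucleic acid sensor that can engage RIPK3, averaged 10.7 ± 2.08 FPKM in CEBPb-A and 14.2 ± 2.01 FPKM in CEBPb (SD, n = 3 each; limma adjusted p = 0.588). Fadd, the adaptor that recruits caspase-8, ranged from 3.12 to 3.60 FPKM in CEBPb-A and from 3.22 to 3.47 FPKM in CEBPb. Ripk3, the kinase that phosphorylates MLKL, ranged from 12.5 to 14.9 FPKM in CEBPb-A and from 13.7 to 15.6 FPKM in CEBPb. Fadd and Ripk3 were named for their role after their values were seen. The mitochondrial release proteins Htra2 and Diablo had log2 fold changes of 0.16 and 0.09, with overlapping groups.

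Among TRAF adaptors other than TRAF2, 6 of 9 genes were tested and the median log2 fold change was −0.16, with 1 gene at an unadjusted p under 0.05. That was Traf3, a brake on non-canonical NF-κB, at 4.58, 3.37 and 2.45 FPKM in CEBPb-A replicates 1, 2 and 3 and 7.03, 5.48 and 3.99 FPKM in CEBPb replicates 1, 2 and 3. Its groups overlapped (limma log2 fold change −0.54, SE 0.22, adjusted p = 0.588), and its longest transcript has 7060 bases. Traf6, the ligase of Toll-like and IL-1 receptor signalling, had a log2 fold change of −0.22, and Traf7 one of 0.002.

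Of 26 other TNF receptor genes 11 were tested, with a median log2 fold change of −0.002. Tnfrsf26, a mouse member of the receptor family, was the 1 gene of that list at an unadjusted p under 0.05, at 29.4, 35.6 and 34.3 FPKM in CEBPb-A replicates 1, 2 and 3, against 29.3, 27.9 and 23.4 FPKM in CEBPb replicates 1, 2 and 3. Its groups were separated by less than 0.1 FPKM (limma log2 fold change 0.29, SE 0.11, adjusted p = 0.588). Relt had a log2 fold change of 0.10, Tnfrsf22 one of −0.25 and Tnfrsf8 one of −0.13. Of 17 other TNF family ligands 4 were tested, with a median log2 fold change of 0.10. Tnfsf15 (TL1A) stood at 1.21, 1.30 and 0.587 FPKM in CEBPb-A replicates 1, 2 and 3, against 1.69, 1.61 and 1.69 FPKM in CEBPb replicates 1, 2 and 3, with no overlap (limma log2 fold change −0.41, SE 0.15, adjusted p = 0.588). Tnfsf13 (APRIL), which supports B cells and plasma cells, and Tnfsf12 (TWEAK) had log2 fold changes of 0.24 and 0.13, with overlapping groups. Genes of these lists that were not tested had a mean below 1 FPKM or were not analysed here.

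Genes that TNF commonly induces through NF-κB had lower values in CEBPb-A more often than higher ones. Of the list, 22 of 27 tested genes were negative, Tnfaip3 among them, beside 5137 of all 9617 tested genes. The list median of the log2 fold change was −0.15, against −0.013 over all tested genes. At an unadjusted p under 0.05 there were 9 lower and 1 higher, and the groups did not overlap for 9 lower and 2 higher. Of all tested genes 4.42% were lower at that p and 8.18% passed it in either direction, and the groups did not overlap for 8.86% lower and 16.8% in either direction. The list was chosen with earlier results of these data known, so this count is a description. Cxcl2, a neutrophil chemokine, stood at 9.26, 8.31 and 8.02 FPKM in CEBPb-A replicates 1, 2 and 3, against 14.6, 13.8 and 14.7 FPKM in CEBPb replicates 1, 2 and 3 (limma log2 fold change −0.69, SE 0.08, adjusted p = 0.0738). Nfkbiz, an inducible nuclear cofactor of NF-κB, stood at 5.67, 5.49 and 4.60 FPKM in CEBPb-A replicates 1, 2 and 3, against 8.56, 8.10 and 8.68 FPKM in CEBPb replicates 1, 2 and 3 (limma log2 fold change −0.60, SE 0.10, adjusted p = 0.265). In the other direction, Bcl2l1, an inhibitor of apoptosis at mitochondria, stood at 15.3, 13.9 and 18.5 FPKM in CEBPb-A against 7.48, 11.9 and 13.3 FPKM in CEBPb (limma log2 fold change 0.54, SE 0.20, adjusted p = 0.588). Gadd45b, a stress-induced regulator of kinase signalling, averaged 9.89 ± 0.347 FPKM in CEBPb-A and 9.11 ± 0.318 FPKM in CEBPb (SD, n = 3 each).

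**Figure D4:**
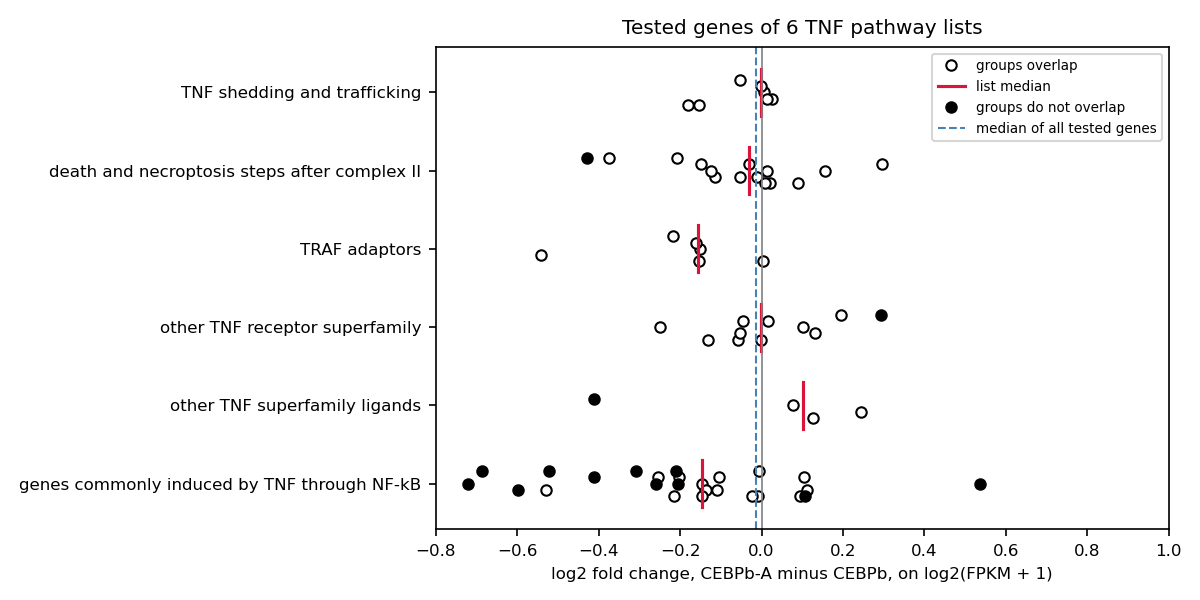
Log2 fold change of each tested gene in 6 lists around the complex, CEBPb-A minus CEBPb, on log2(FPKM + 1); filled points are genes whose groups do not overlap, the red bar is the list median and the dashed line the median of all tested genes. Most filled points lie left of 0 in the list of genes induced through NF-κB, whose median is −0.15, and the list medians of TNF shedding and of other receptors lie at −0.002.

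The genes whose profile over the 6 libraries was most like that of Tnf, by root mean square difference of mean-centred log2(FPKM + 1), were H2-Q7 (0.042), Cmtr2 (0.046) and Slc43a3 (0.053). H2-Q7, an MHC class I gene with near-identical copies among which reads may be divided, averaged 4.82 ± 0.20 FPKM in CEBPb-A and 6.27 ± 0.238 FPKM in CEBPb (SD, n = 3 each). Most like Birc3 were Them4 (0.041), Atrnl1 (0.041) and Aoah (0.044), the last an enzyme that inactivates lipopolysaccharide, at 2.44 ± 0.274 FPKM in CEBPb-A and 3.67 ± 0.0595 FPKM in CEBPb (SD, n = 3 each). Most like Cflar were Tcf20 (0.043), Myo10 (0.051) and Man2a1 (0.057). Their longest transcripts have 7417, 8125 and 6991 bases, against 6572 for Cflar and a median of 3298 over tested genes. The part of the trend with transcript length in this likeness was not tested. Each of these 9 genes had a lower mean in CEBPb-A. That follows from their selection by likeness to Tnf, Birc3 or Cflar over the same libraries and is no separate result. None of the 9 passed limma's adjusted threshold.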

How the data were processed

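RNA from 6 libraries was sequenced after stranded KAPA library preparation, per the labels' protocols. The authors deposited FPKM values per gene, with GRCm38 as the build named by the submitters' processing notes. Which aligner, counting program and annotation release were used is not given in the sources used here. Sequencing depth is unknown: low FPKM values of 126 to 145 single-transcript genes per library did not fall on whole-read steps (highest periodicity 0.158 to 0.254, where 1 means whole steps), so no counting interval can be given.

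Genes with a mean of at least 1 FPKM were tested as log2(FPKM + 1), a scale that shrinks changes of low genes, with limma 3.58.1 (R 4.3.3) and its intensity trend. The contrast was CEBPb-A minus CEBPb, two-sided, Benjamini-Hochberg adjusted over 9617 genes, threshold 0.05. The script was tested on simulated data with independent noise per gene, in which the changed genes had a mean of at least 5 FPKM. There, absolute log2 fold changes of 1, 1.5 and 3 were called for 90.4% of 73, 96.8% of 63 and 100% of 64 genes. The simulation held no trend with transcript length, and many changed genes loosen the adjusted threshold. These rates may therefore not hold for the real table. Changes of the size seen for Tnf, Birc3 and Cflar were not simulated, so the chance of calling them is not known. Of the listed genes, 9603 of 10539 had the same locus in GENCODE M21 (GRCm38), which gave transcript lengths for 10516; promoter windows came from RefSeq. Same-numbered libraries were checked for pairing: their deviations correlated at 0.099, 0.25 and 0.26, against −0.245 to 0.087 for differently numbered libraries. Each library correlated highest with its same-numbered partner, so the numbers may mark pairs. The labels do not state pairs, so the main test did not use them, and the replicate block is given as an alternative.

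The members and gene lists were chosen with earlier results of these data known. Named genes were the 10 members, Tnfaip3 and Cebpb, up to 2 genes per list and direction by smallest p, and 3 genes most like Tnf, Birc3 and Cflar. The 16 alternatives were other pseudocounts (0.1, 0.5), filters, scalings and priors, a length trend removed, the replicate block and each library left out.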

Additional observations from a re-analysis of the deposited data

How the results depend on the processing

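None of the 10 genes passed limma's adjusted threshold under any of the 16 alternatives, and Tnf, Birc3 and Cflar kept their negative sign in all of them (log2 fold changes −0.45 to −0.33, −0.43 to −0.31 and −0.51 to −0.27; adjusted p 0.143 to 0.855, 0.372 to 0.855 and 0.372 to 0.894). The count of members whose groups do not overlap, recomputed after seeing the data, was 3 to 5 with single libraries left out and 3 or 4 otherwise. Tnf, Birc3 and Cflar were among them each time. Most alternatives could not have changed that or their sign. Leaving out a library cannot make separated groups overlap. Other pseudocounts, filters, priors and the replicate block do not reorder the values of a gene. Only the scalings and the removed length trend could have done so. The share of tested genes whose groups do not overlap was 22.2% to 34.0% with single libraries left out and 13.5% to 18.1% otherwise. The count was 5 beside 33.2% without CEBPb-A replicate 1, and 4 beside 22.2% without CEBPb-A replicate 3. It was also 4 beside 25.9% without CEBPb replicate 2 and 4 beside 34.0% without CEBPb replicate 3.

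Signs near 0 turned. With the length trend removed Tradd was at −0.062, Ripk1 at 0.026 and Casp8 at −0.0082, and after quantile normalization Casp8 was at −0.027. With single libraries left out the log2 fold change ran from −0.0014 to 0.13 for Tnfrsf1a, −0.074 to 0.093 for Tradd, −0.045 to 0.078 for Traf2, −0.28 to 0.0071 for Ripk1 and −0.17 to 0.034 for Birc2. Birc2 has no value at a mean FPKM of at least 5.

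The number of all tested genes past the threshold was 5, and 0 at a mean FPKM of at least 5, 2 after quantile normalization, 1 with the replicate block, 8 with the length trend removed and 1 to 9 with single libraries left out. The block result is given because the labels number both groups alike; with the block no member passed (smallest adjusted p 0.372).

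List medians moved beyond the spread between libraries at a mean FPKM of at least 5 (TNF shedding −0.054, death steps −0.083, other receptors 0.074) and with the length trend removed (shedding 0.036, genes induced through NF-κB −0.22). With single libraries left out they ran from −0.056 to 0.026 for shedding, −0.10 to −0.036 for death steps, 0.015 to 0.14 for other ligands and −0.25 to −0.14 for genes induced through NF-κB. The filter leaves each log2 fold change as it was and only drops genes, from 7 to 5 for shedding, 15 to 10 for death steps and 11 to 6 for other receptors. Why the other medians moved was not tested. Depth is unknown, and precision rests on 3 libraries per group.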
